A study of Mus musculus with 16 samples.

Results

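A set of 10 genes of insulin-like growth factor (IGF) and insulin signaling, Igf1, Igf2, Igfbp5, Igf1r, Insr, Irs1, Irs2, Pik3r1, Akt1 and Akt2, was followed in mouse gastrocnemius muscle. The genes were chosen by symbol, as ligands, a binding protein, receptors, adaptors and kinases of a single pathway. All 10 were found among the 35415 genes of the table, and all 10 were among the 14749 genes whose counts were high enough to be tested.

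RNA was sequenced from 16 male BALB/c mice that were 8 weeks old at purchase, with 4 mice in each of 4 groups, randomly drawn from the 12 mice that the study placed in each group. The control (C) group had neither tumor nor training, and the exercise (E) group was trained on a treadmill over 4 weeks, with daily runs of 60 min at a belt speed of 14 m/min and 6 such days each week. The tumor-bearing (T) group was injected under the skin of the hind limb with CT26 cells, a colon carcinoma line derived from BALB/c mice, and the tumor-bearing plus exercise (TE) group received both CT26 cells and training. All mice were anesthetized for an injection at the same site, with saline in place of cells in C and E, and the untrained C and T mice spent a short time each day on a treadmill that did not move. The tumor was thus a single transplanted line, and the sources used here do not say from which leg the sequenced muscle came. Not every TE mouse of the study formed a tumor, and the sources used here do not say whether each sequenced TE mouse carried one. The same batch was given for all 16 libraries.

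IGF1 and IGF2 are secreted ligands that bind the IGF1 receptor, and insulin binds the closely related insulin receptor. Both receptors phosphorylate the adaptors IRS1 and IRS2, which recruit PI3K and thereby activate AKT. In muscle AKT favors protein synthesis through mTOR, glucose uptake through the transporter GLUT4, and retention of FOXO transcription factors outside the nucleus, where they cannot switch on genes of protein breakdown.

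No member passed the adjusted test of edgeR in any of 7 comparisons, whereas DESeq2 called 3 members in T vs C (2.81% of its genes) and 2 for the tumor effect over both training states (3.00%), and limma-voom called 1 for the latter (1.51%). The members nearest to it were Insr, Pik3r1 and Akt2, whose means were higher in T than in C by 29.3%, 55.8% and 14.3%, with adjusted p-values of 0.0704, 0.108 and 0.0997 in edgeR's quasi-likelihood test. Among the other pathway genes, Foxo1, Foxo3 and Pdpk1 rose and Igfbp6 fell with the tumor over both training states in edgeR's test. Foxo1 and Igfbp6 kept this call in 25 of 25 alternatives, and Foxo3 and Pdpk1 in 14 each. Igfbp6 was not called in T vs C by edgeR (adjusted p = 0.0741) but was by DESeq2 (0.00784), and there the other 3 were called but lost the call without C4 or without T3.

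Levels are given in CPM, a unit that sets the deposited read count of a gene against the library total after TMM scaling, as mean ± SD of 4 mice. A gene was called at an adjusted p-value under 0.05 in edgeR's quasi-likelihood test, two-sided, with Benjamini-Hochberg adjustment over the 14749 genes. Library totals lay between 35628211 and 37635741 counts and TMM factors between 0.947 and 1.05. The sum of 8 muscle fiber markers was 93516 CPM or more in every library, against at most 1.96 CPM for 3 epithelial markers. Only 1 of these 3 had counts high enough to be tested, and whether CT26 cells express them was not tested. Summed neutrophil markers were 0.605 to 3.43 CPM in C and 7.21 to 41.1 CPM in T, with 4 of 4 markers called higher in T, and red cell markers were 206 to 299 CPM in C and 430 to 480 CPM in T, with 3 of 4 called higher. Of the macrophage, fibroblast, endothelial, adipocyte, satellite cell, Schwann cell, lymphocyte and muscle fiber markers none was called in T vs C. Summed lymphocyte markers were 34.4 CPM in TE4 (replicate 4 of the TE group), 11.9 CPM in C3 and 9.04 CPM in E1, and at most 4.21 CPM in the other 13 libraries. In RNA from whole muscle, fewer cells of a type and less RNA per cell cannot be told apart.

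The start regions of Irs1 and Irs2 are shown first, because they were the member windows with the insulin response sequence, searched as TTGTTTTG on both strands. The windows run from 250 bases before to 50 bases after the gene start in RefSeq on GRCm38.p6, an earlier build than the GRCm39 used for the counts. The Irs1 window is chr1:82291390-82291689 and the Irs2 window chr8:11008880-11009179, both on the minus strand and printed 5′ to 3′ along the gene, with the motif in capitals.
Irs1: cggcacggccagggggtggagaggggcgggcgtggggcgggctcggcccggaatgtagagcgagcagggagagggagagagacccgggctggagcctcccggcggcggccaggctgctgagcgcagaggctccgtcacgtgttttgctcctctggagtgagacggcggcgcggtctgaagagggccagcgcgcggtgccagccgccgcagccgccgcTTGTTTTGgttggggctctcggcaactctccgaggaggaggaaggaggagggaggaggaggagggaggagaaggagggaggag
Irs2: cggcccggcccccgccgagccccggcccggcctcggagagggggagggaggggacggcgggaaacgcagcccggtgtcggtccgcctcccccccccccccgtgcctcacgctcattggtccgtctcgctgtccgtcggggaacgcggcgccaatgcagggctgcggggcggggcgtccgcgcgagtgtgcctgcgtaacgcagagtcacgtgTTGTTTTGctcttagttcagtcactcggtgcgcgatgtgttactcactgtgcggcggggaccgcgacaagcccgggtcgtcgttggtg
With positions counted from the gene start and negative before it, the motif began at -33 in Irs1 and at -38 in Irs2, on the gene strand in both. It was present in 2.51% of the 32851 windows of the table. The longest runs of letters common to both windows had 10 bases, and there were 2 of them. The run gtcacgtgtt began at -117 in Irs1 and at -46 in Irs2, and the run tgttttgctc began at -111 in Irs1 and at -37 in Irs2. In Irs2 both overlap the motif, and in Irs1 neither does.

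Motifs that FOXO proteins bind, searched as TGTTTAC and TATTTAC on both strands, were found in a window of Akt1 and a window of Akt2, and these are shown because FOXO transcription factors lie downstream of both kinases. The Akt1 window is chr12:112674835-112675134 on the minus strand and the Akt2 window chr7:27591302-27591601 on the plus strand, on the same build.
Akt1: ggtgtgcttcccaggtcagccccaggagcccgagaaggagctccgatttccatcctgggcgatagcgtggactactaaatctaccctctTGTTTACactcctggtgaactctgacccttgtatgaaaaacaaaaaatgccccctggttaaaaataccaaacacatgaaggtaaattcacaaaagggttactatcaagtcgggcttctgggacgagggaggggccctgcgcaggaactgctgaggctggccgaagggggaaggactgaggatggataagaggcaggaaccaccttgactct
Akt2: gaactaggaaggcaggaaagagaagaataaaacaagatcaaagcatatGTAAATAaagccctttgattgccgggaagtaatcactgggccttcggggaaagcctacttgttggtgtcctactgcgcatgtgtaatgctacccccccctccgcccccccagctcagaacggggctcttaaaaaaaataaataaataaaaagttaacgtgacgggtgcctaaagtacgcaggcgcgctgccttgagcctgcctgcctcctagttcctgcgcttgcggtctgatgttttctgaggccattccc
TGTTTAC began at -161 in Akt1 and was present in 3.65% of all windows. TATTTAC lay on the opposite strand of the Akt2 window, at -202, and was present in 3.04% of all windows. The table held 17 windows for 9 of the 10 members, without Insr, and 4 of the 17 held at least 1 of the 3 motifs, against 8.87% of all windows. These are matches of letters and were not tested as binding sites.

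Per unit of length the binding protein stood far above the other members in the C group. Levels between genes were compared in FPKM, in which counts are divided by the gene's length and the library's total. Igfbp5, which binds IGFs outside the cell, was at 120 ± 15.5 FPKM, and its mean over all 16 libraries was above that of 97.15% of the tested genes. Akt2 at 22.3 ± 0.561 FPKM and Akt1 at 20.9 ± 1.95 FPKM came next, and the ranges of these 2 kinases overlapped over the 4 C libraries. The adaptor Irs1 at 9.40 ± 2.08 FPKM and the receptor Insr at 8.54 ± 0.389 FPKM overlapped in the same way, as did the ligand Igf2 at 5.65 ± 0.285 FPKM and the adaptor Irs2 at 4.92 ± 0.537 FPKM. Pik3r1, the p85α regulatory subunit of PI3K, was at 2.56 ± 0.278 FPKM and overlapped with Igf1 at 2.26 ± 0.276 FPKM. Igf1r was lowest at 1.32 ± 0.198 FPKM and did not overlap with Igf1. The other neighbors in this order did not overlap over the C libraries.

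**Figure D1:**
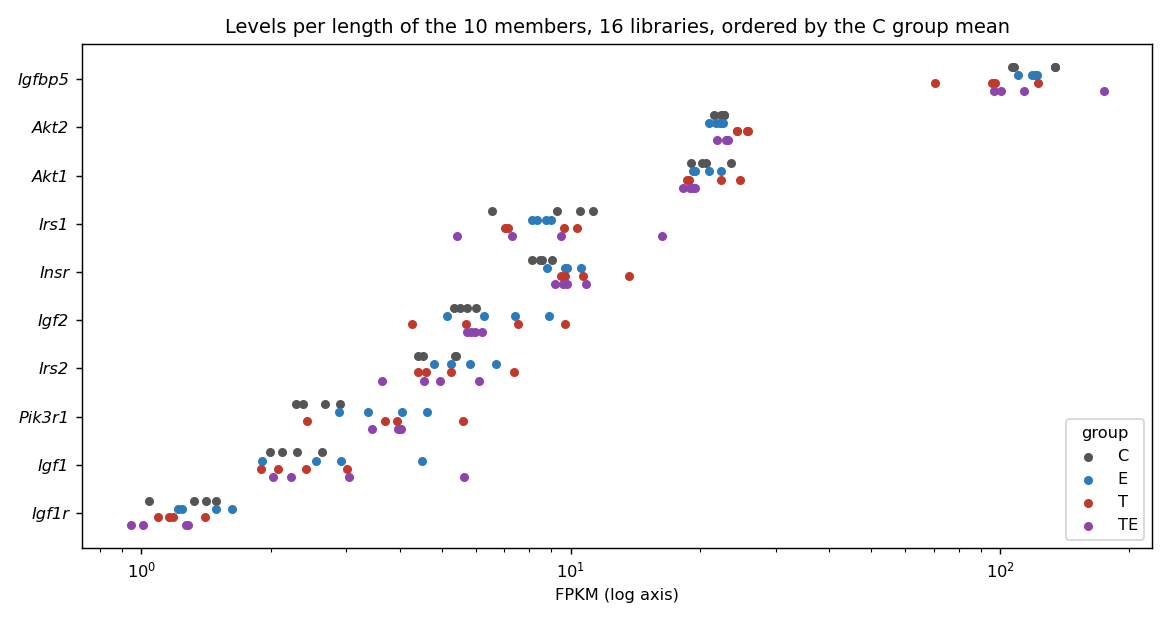
Level per length of each member in FPKM on a log axis, with 1 point for each of the 16 libraries, colored by group and ordered from top to bottom by the mean of the C group. Igfbp5 lies at 70.4 to 174 FPKM, Akt2 and Akt1 near 20 FPKM, and Igf1r between 0.943 and 1.63 FPKM.

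The groups overlapped for both ligands, and the spread between mice was wide in some groups. Igf1 (chr10:87693642-87772904, plus strand, GRCm39) measured 20.5, 22.3, 17.9 and 17.04 CPM in C, 21.3, 38.1, 23.9 and 16.2 CPM in E, 17.2, 18.1, 25.6 and 21.1 CPM in T, and 48.1, 26.8, 19.8 and 17.1 CPM in TE. A single mouse in each trained group, E2 and TE1, stood above all others, and the remaining values overlapped throughout. Igf1 was higher by 0.35 ± 0.28 (log2 fold change ± SE) in E than in C (adjusted p = 0.591) and by 0.45 ± 0.28 in TE than in T (adjusted p = 0.893), with 95% intervals of -0.23 to 0.94 and -0.14 to 1.03. Without E2 the first value was 0.07, and without TE1 the second was 0.05. The adipocyte marker sum was highest of all libraries in E2, at 725 CPM, and was 502 CPM in TE1, within the range of the C group (422 to 561 CPM), and its part in the Igf1 values was not tested.

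Igf2 (chr7:142204503-142220694, minus strand), the ligand best known for growth before birth, measured 32.6, 33.7, 32.1 and 30.4 CPM in C and 35.2, 34.2, 35.1 and 32.0 CPM in TE. In E it measured 49.2, 28.9, 40.3 and 35.3 CPM and in T 34.3, 24.7, 42.5 and 56.0 CPM. The spread was thus 4.32% and 4.37% of the mean in C and TE but 22.3% in E and 33.6% in T, where both the lowest and the highest of the 16 values were found. The difference in log2 was 0.29 ± 0.18 for T vs C (adjusted p = 0.506) and 0.25 ± 0.18 for E vs C (adjusted p = 0.550) in edgeR's test. Its gene overlaps Gm49394, a protein-coding gene model on the same strand that the counts do not list, so that the assignment of shared reads is uncertain.

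Igfbp5 (chr1:72897091-72914043, minus strand) measured 814, 613, 769.5 and 629 CPM in C and 593, 579, 407.5 and 727 CPM in T. The value of T3 was the lowest of all 16 libraries, while T4 lay inside the C range. It measured 584, 1046, 687 and 555 CPM in TE, where TE2 was the highest of all, and 674, 635, 679 and 697 CPM in E, where the SD was 3.90% of the mean. The difference was -0.29 ± 0.18 in log2 for T vs C (adjusted p = 0.490) and 0.32 ± 0.18 for TE vs T (adjusted p = 0.862), comparisons that share the T mice.

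Of the receptors, Insr did not overlap between C and T and Igf1r did, and edgeR called neither. Insr (chr8:3172061-3329647, minus strand), the receptor of insulin, measured 82.8, 79.35, 83.8 and 76.3 CPM in C and 94.4, 92.8, 127 and 102 CPM in T. All 4 T mice were above all 4 C mice, with T3 well above the rest. Means were 80.5 ± 3.42 CPM in C and 104 ± 15.8 CPM in T, a log2 fold change of 0.37 ± 0.0900 (95% interval 0.18 to 0.56) with adjusted p = 0.0704 in edgeR's test. Without T3 the log2 fold change was 0.26 with an adjusted p of 0.191, and without T2 it was 0.42 with an adjusted p of 0.0347. In TE it measured 91.9, 105, 89.3 and 88.5 CPM, all above the highest C value of 83.8 CPM. In E it measured 80.5, 91.0, 94.6 and 90.3 CPM, and E1 lay inside the C range. T3 was also the library with the highest sums of macrophage (89.1 CPM), endothelial (556 CPM) and satellite cell markers (30.5 CPM), and their part in its Insr value was not tested.

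Igf1r (chr7:67601518-67883416, plus strand), the main receptor of IGF1, measured 14.03, 16.9, 19.0 and 18.3 CPM in C and 16.2, 14.4, 18.1 and 15.3 CPM in T, which overlapped. Its log2 fold change for T vs C was -0.09 ± 0.12, with a 95% interval of -0.35 to 0.16. The difference with the smallest unadjusted p was between TE (16.5, 12.5, 13.5 and 16.2 CPM) and E (15.7, 19.0, 20.1 and 15.6 CPM), at -0.26 ± 0.12 with adjusted p = 0.525 in edgeR's test. These groups overlapped too, since TE1 and TE4 lay above the lowest E mice.

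As both receptors were measured in the same library, their ratio in FPKM does not depend on the scaling of libraries. Igf1r over Insr was 0.123, 0.155, 0.165 and 0.174 in C and 0.125, 0.113, 0.103 and 0.109 in T. C2, C3 and C4 lay above all T mice, while C1 lay inside the T range. The mean ratio was 0.154 ± 0.0222 in C, 0.143 ± 0.0131 in E, 0.112 ± 0.00914 in T and 0.115 ± 0.0213 in TE. The difference between T and C was -0.45 in log2 with p = 0.0571 in an exact permutation test (two-sided) and adjusted p = 0.686 over 12 tests. The smallest p that 4 mice against 4 allow is 0.0286. The other 11 tests, of Igf1 over Igf2, Irs1 over Irs2, Akt1 over Akt2 and this ratio in E vs C and TE vs T, gave exact p-values of 0.171 or more.

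The adaptors showed no ordered difference between groups. Irs1 (chr1:82210822-82269338, minus strand) measured 62.3, 102, 94.2 and 84.9 CPM in C, 79.9, 73.3, 76.3 and 75.4 CPM in E, 100.2, 65.5, 87.5 and 66.3 CPM in T, and 149, 68.4, 89.5 and 48.9 CPM in TE. Both the highest and the lowest of the 16 values came from the TE group, TE1 and TE4, and the SD in E was 3.60% of the mean. The 95% interval for T vs C ran from -0.62 to 0.41 in log2 and that for TE vs T from -0.36 to 0.67, which include differences of either sign. Irs2 (chr8:11034681-11059499, minus strand) lay between 24.3 CPM in TE4 and 49.6 CPM in T3, with group means of 33.5 ± 3.44 CPM in C, 37.3 ± 5.05 CPM in E, 37.4 ± 8.52 CPM in T and 33.1 ± 7.71 CPM in TE. Its 95% interval for T vs C was -0.18 to 0.50. TE1 thus had the highest Igf1 and the highest Irs1 of all libraries, and TE4, the lowest Irs1 and Irs2, was also the library with the highest lymphocyte marker sum, whose part in these values was not tested.

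Pik3r1 (chr13:101817071-101904725, minus strand) had the largest log2 fold change among the members in T vs C and E vs C. It measured 28.3, 30.2, 32.6 and 26.2 CPM in C, 32.1, 52.4, 44.1 and 38.2 CPM in E, 44.7, 28.4, 63.6 and 45.9 CPM in T, and 45.6, 40.4, 47.7 and 44.7 CPM in TE. All 4 TE mice were above all 4 C mice, whereas E1 and T2 lay inside the C range. The log2 fold change was 0.64 ± 0.18 for T vs C (95% interval 0.26 to 1.02, adjusted p = 0.108) and 0.51 ± 0.18 for E vs C (0.13 to 0.89, adjusted p = 0.226) in edgeR's test. These comparisons share the C mice. Without T2 the value for T vs C was 0.81 with an adjusted p of 0.0113, and without T3 it was 0.43 with an adjusted p of 0.330. Without E2 the value for E vs C was 0.38. The fibroblast marker sum was 895 to 1111 CPM in E and 607 to 834 CPM in C, with 0 of 4 markers called. The endothelial marker sum was 439.2 to 498.4 CPM in E and 359.8 to 438.6 CPM in C, with 0 of 3 markers called. The part of these sums in the E values was not tested.

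The kinase Akt2 (chr7:27284378-27340262, plus strand), the AKT form most tied to insulin-driven glucose uptake, spread little between mice, by 2.30% to 4.41% of the group mean. It measured 169, 152, 159 and 159 CPM in C and 184, 177, 183 and 187 CPM in T. All T mice were above all C mice. In E it measured 151, 148, 154 and 158 CPM and in TE 156, 171, 169 and 162 CPM, so that all TE mice were below all T mice and overlapped with C. The log2 fold change was 0.19 ± 0.0522 for T vs C (95% interval 0.08 to 0.30, adjusted p = 0.0997) and -0.15 ± 0.0522 for TE vs T (-0.26 to -0.04, adjusted p = 0.738) in edgeR's test, and these comparisons share the T mice. TE vs E gave 0.11 ± 0.0522 (adjusted p = 0.560).

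Akt1 (chr12:112620248-112645654, minus strand), the more broadly acting form, measured 60.01, 70.7, 61.5 and 61.3 CPM in C and 59.8, 58.2, 74.5 and 69.0 CPM in T. In TE it measured 58.7, 56.8, 59.4 and 57.4 CPM, all below the lowest C value of 60.01 CPM, with E at 61.8, 67.2, 55.8 and 58.5 CPM across both. The log2 fold change was 0.05 ± 0.0821 for T vs C and -0.17 ± 0.0822 for TE vs T (95% interval -0.35 to 0.0015, adjusted p = 0.847) in edgeR's test. The gene overlaps Siva1 (median count 292.5) and Zbtb42 (median count 71.5) on the opposite strand, against 2058 to 2639 counts of Akt1 in C, and the strand setting of the counting is not given in the sources used here.

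**Figure D2:**
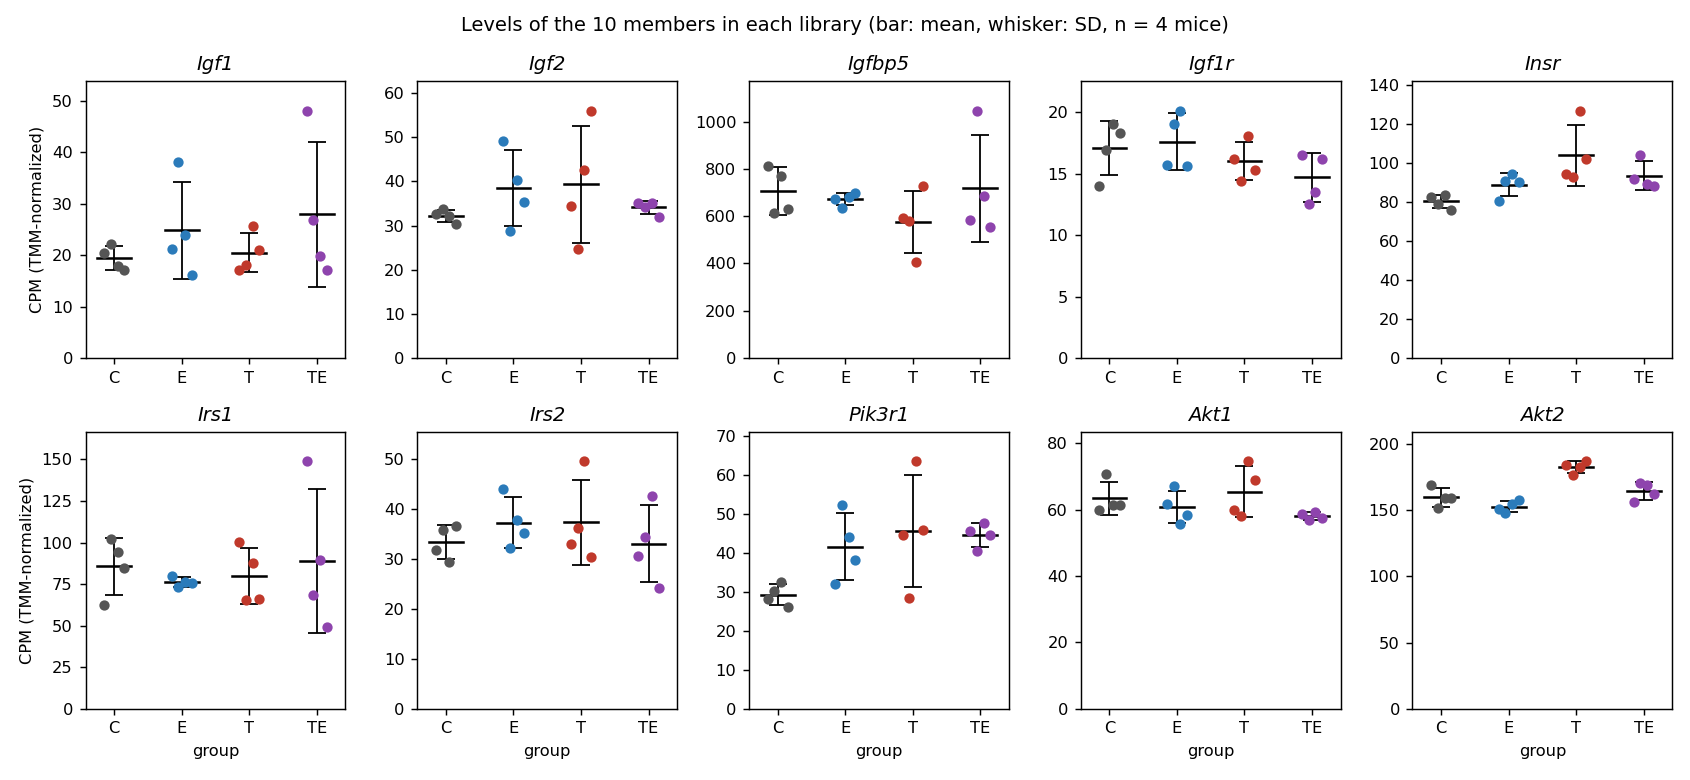
Level of each member in CPM (vertical axes, starting at 0) by group, with 1 point per mouse, a bar for the mean and whiskers for the SD of 4 mice. For Insr and Akt2 the 4 T points lie above the 4 C points, whereas single points set the spread of Igf1 (TE1, 48.1 CPM), Irs1 (TE1, 149 CPM) and Igfbp5 (TE2, 1046 CPM).

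The members were then counted beside the whole table. In T vs C, which asks what the tumor does in untrained muscle, 0 of 10 members were called by edgeR, against 0.678% of the tested genes, and 3 of 10 had an unadjusted p under 0.05, all higher in T, against 14.2% of the tested genes in either direction and 8.23% higher in T. There were 2 members, Insr and Akt2, that did not overlap between T and C, against 6.86% of tested genes. There were 7 members higher and 3 lower in T, with a median log2 fold change of 0.12, where the median of all tested genes was -0.0012. With DESeq2 in place of edgeR, Insr (adjusted p = 0.0103), Pik3r1 (0.0205) and Akt2 (0.0183) were called, against 2.81% of the genes that DESeq2 tested. With limma-voom 0 members were called, the smallest adjusted p being 0.0954.

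Without a tumor, E vs C, 0 of 10 members were called (background 0.0881%), and Pik3r1 alone had an unadjusted p under 0.05 (background 14.2%). No member separated the E from the C mice without overlap, against 9.08% of tested genes. In TE vs T, which asks what training does in mice with a tumor, 0 members were called in edgeR as was 0% of the tested genes, and Akt2 alone had an unadjusted p under 0.05 (background 5.88%) and did not overlap (background 2.58%). In TE vs E 0 members were called (background 0.231%), Igf1r alone had an unadjusted p under 0.05 (background 9.23%), and 0 of 10 separated TE from E without overlap (against 6.62% of tested genes that did). DESeq2 and limma-voom called 0 members in each of these 3 comparisons. Between TE and C, Insr and Pik3r1 were higher and Akt1 lower in all 4 TE mice without overlap, against 7.70% of tested genes in either direction, and no test of this pair of groups was run.

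**Figure D3:**
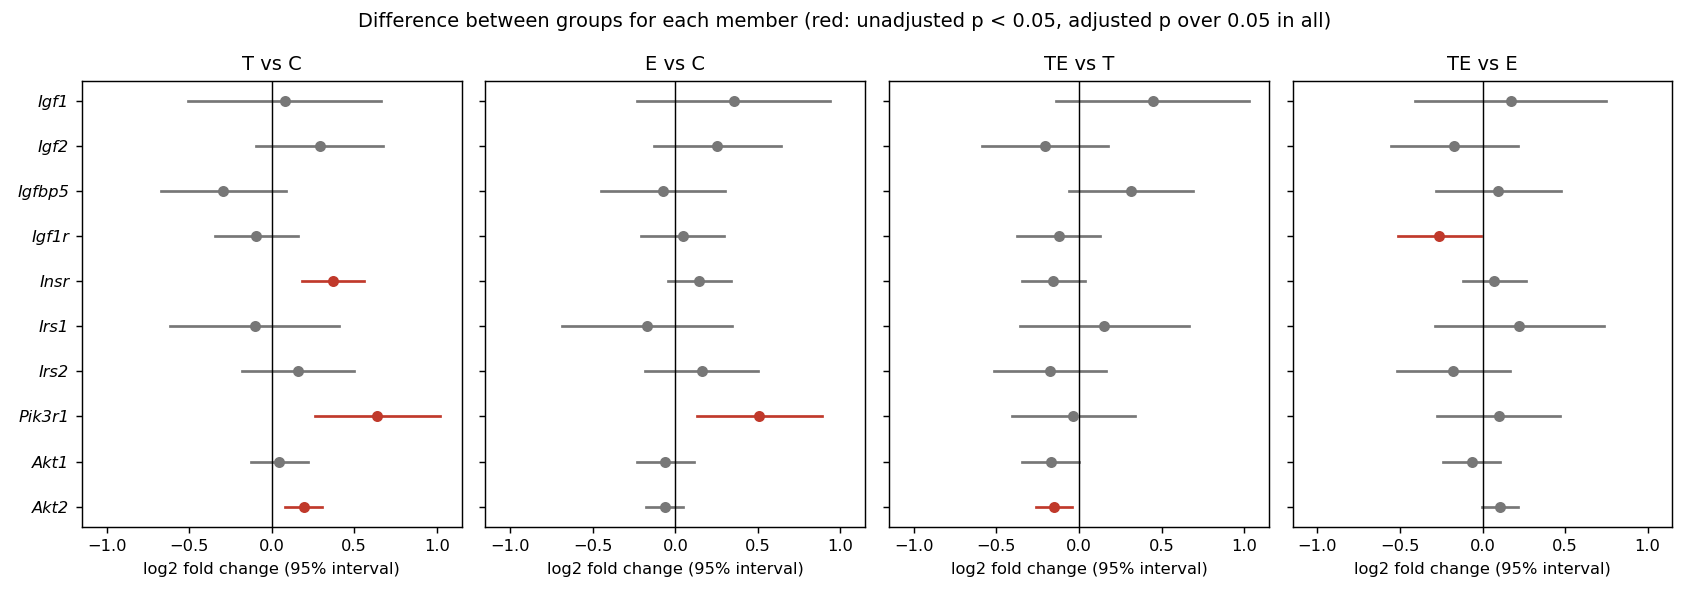
Log2 fold change of each member (point) with its 95% interval (line) in T vs C, E vs C, TE vs T and TE vs E from edgeR, with an unadjusted p under 0.05 in red. Insr, Pik3r1 and Akt2 lie to the right of 0 in T vs C, and the widest intervals belong to Igf1 and Irs1.

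Over both training states, 8 tumor-bearing against 8 tumor-free mice, 0 members were called in edgeR (background 1.36%), and Insr, Pik3r1 and Akt2 had an unadjusted p under 0.05 (background 14.2%). The log2 fold changes were 0.15 ± 0.0369 for Akt2 (adjusted p = 0.0565), 0.22 ± 0.0636 for Insr (adjusted p = 0.106) and 0.37 ± 0.126 for Pik3r1 (adjusted p = 0.179). DESeq2 called Akt2 (adjusted p = 0.00415) and Insr (0.0403), where it called 3.00% of its genes, and limma-voom called Akt2 (0.0426), where it called 1.51%. Over both tumor states, 8 trained against 8 untrained mice, 0 members were called in edgeR (background 0.00678%), DESeq2 and limma-voom. Akt2 had an unadjusted p under 0.05 (background 10.8%), at -0.11 ± 0.0369 (adjusted p = 0.347), and Igf1 was at 0.40 ± 0.196 (adjusted p = 0.479). Without E2 and TE1, its highest values, the training effect on Igf1 was 0.06 (adjusted p = 0.922), a setting chosen after seeing the data. For the interaction, which compares the training effect in mice with and without a tumor, 0 members and 0% of tested genes were called in edgeR, and DESeq2 and limma-voom called 0 members. Insr (-0.30 ± 0.127, adjusted p = 0.518) and Pik3r1 (-0.54 ± 0.252, adjusted p = 0.540) had an unadjusted p under 0.05 (background 9.21%). Without T3 these values were -0.18 and -0.33, and the count of members at an unadjusted p under 0.05 was 0 without C4, E3, T3 or TE4 and 3 without T2.

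The remaining genes of the pathway were described from a list of 79, of which 74 were tested, grouped by role. In T vs C 3 of the 74 rose and 0 fell in edgeR's test, where 0.678% of all genes were called. Before adjustment 15 were higher and 2 lower at a p under 0.05, against 14.2% of all tested genes in either direction and 8.23% higher in T. The median log2 fold change of the 74 was 0.08, and that of all tested genes -0.0012. Those called were 1 of 5 kinases and 2 of 9 genes downstream of AKT. None of the 8 ligands and binding proteins, 14 adaptors and receptor regulators, 7 PI3K genes, 9 phosphatases and brakes, 21 mTOR genes and the 1 other tested receptor was called.

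Pdpk1, the kinase PDK1 that phosphorylates AKT, measured 29.2, 28.8, 34.1 and 25.997 CPM in C and 38.4, 41.8, 43.6 and 38.7 CPM in T, without overlap. Its log2 fold change was 0.46 ± 0.0815 (adjusted p = 0.0147). Foxo1, a transcription factor that AKT holds back and that is known to drive genes of muscle protein breakdown, measured 22.9, 23.3, 27.7 and 25.2 CPM in C and 44.8, 29.8, 41.8 and 40.4 CPM in T. It was higher in every T mouse, with T2 nearest to C, and the log2 fold change was 0.66 ± 0.123 (adjusted p = 0.0195). The related Foxo3 measured 30.4, 29.7, 31.1 and 29.9 CPM in C and 44.5, 36.7, 49.3 and 37.0 CPM in T, again without overlap, at 0.47 ± 0.0944 (adjusted p = 0.0335) in edgeR's test. None of the 3 was called in T vs C when C4 was left out (adjusted p of 0.0815 for Pdpk1 and Foxo1 and 0.118 for Foxo3) or when T3 was left out (0.0590, 0.0701 and 0.112), nor in a fit of C and T alone (0.0701, 0.0570 and 0.0908). Foxo1 and Foxo3 also lost the call without C1 (0.0502 and 0.0646), C2 (0.0689 and 0.0914) or T1 (0.0562 and 0.0701), and Foxo3 without C3 (0.0785), all by edgeR.

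In TE the 3 genes lay between the means of C and T. Foxo1 was at 35.8 ± 5.31 CPM, Foxo3 at 36.4 ± 3.22 CPM and Pdpk1 at 37.5 ± 1.95 CPM, and TE vs T gave adjusted p-values of 0.942, 0.847 and 0.904. In E they were at 29.5 ± 3.15, 33.4 ± 2.84 and 36.1 ± 2.66 CPM, with adjusted p-values of 0.371, 0.526 and 0.148 against C. Over both training states Foxo1 (0.47 ± 0.0869, adjusted p = 0.00948), Pdpk1 (0.26 ± 0.0575, adjusted p = 0.0314) and Foxo3 (0.30 ± 0.0667, adjusted p = 0.0315) rose with the tumor in edgeR's test. Foxo1 kept this call without any library in turn. Foxo3 lost it without E1, E2, E4, C1, C2, C3, C4, T1, TE3 or TE4 (adjusted p of 0.0507 to 0.0795), and Pdpk1 without E1, E2, E4, C1, C2, C4, T3, TE1, TE2 or TE3 (0.0510 to 0.0768).

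Igfbp6, an IGF-binding protein with a preference for IGF2, was the pathway gene that fell with the tumor. It measured 29.7, 46.8, 38.9 and 36.6 CPM in C, 46.6, 57.2, 58.8 and 44.9 CPM in E, 20.2, 26.1, 31.9 and 25.3 CPM in T, and 30.2, 25.9, 28.4 and 29.1 CPM in TE. Every TE mouse was below every E mouse, and T overlapped with C through C1 and T3. The log2 fold change was -0.87 ± 0.138 for TE vs E (adjusted p = 0.00799) and -0.71 ± 0.0977 over both training states (adjusted p = 0.00116), whereas T vs C gave -0.55 ± 0.138 (adjusted p = 0.0741, under 0.05 in 3 of 26 alternatives, namely DESeq2, no filter on low counts and without C1) and E vs C 0.45 ± 0.137 (adjusted p = 0.178) in edgeR's test. Without C3, E1 and TE4, the libraries with the most lymphocyte marker signal, the adjusted p for TE vs E was 0.0573 at a log2 fold change of -0.93. Igfbp5, the member of the same protein family, did not share this order, at 706 ± 101, 672 ± 26.2, 577 ± 131 and 718 ± 226 CPM in C, E, T and TE. The fibroblast marker sum was 895 to 1111 CPM in E and 680 to 740 CPM in TE, and its part in the Igfbp6 difference was not tested. In edgeR and limma-voom 0 pathway genes were called in E vs C, TE vs T, the training effect and the interaction. DESeq2 called 1 of them in E vs C, Inpp5k, a phosphatase, lower in E, against 1.85% of its genes, and 0 in the other 3. In edgeR's test of these comparisons 11 of the 74 were higher and 8 lower, 2 higher and 5 lower, 7 higher and 6 lower, and 4 higher and 8 lower at an unadjusted p under 0.05, against 14.2%, 5.88%, 10.8% and 9.21% of all tested genes in either direction. For the tumor effect 14 were higher and 2 lower (background 14.2%), and in TE vs E 7 were higher and 7 lower (background 9.23%). After adjustment edgeR called 1.36% of all tested genes for the tumor effect and 0.231% in TE vs E.

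**Figure D4:**
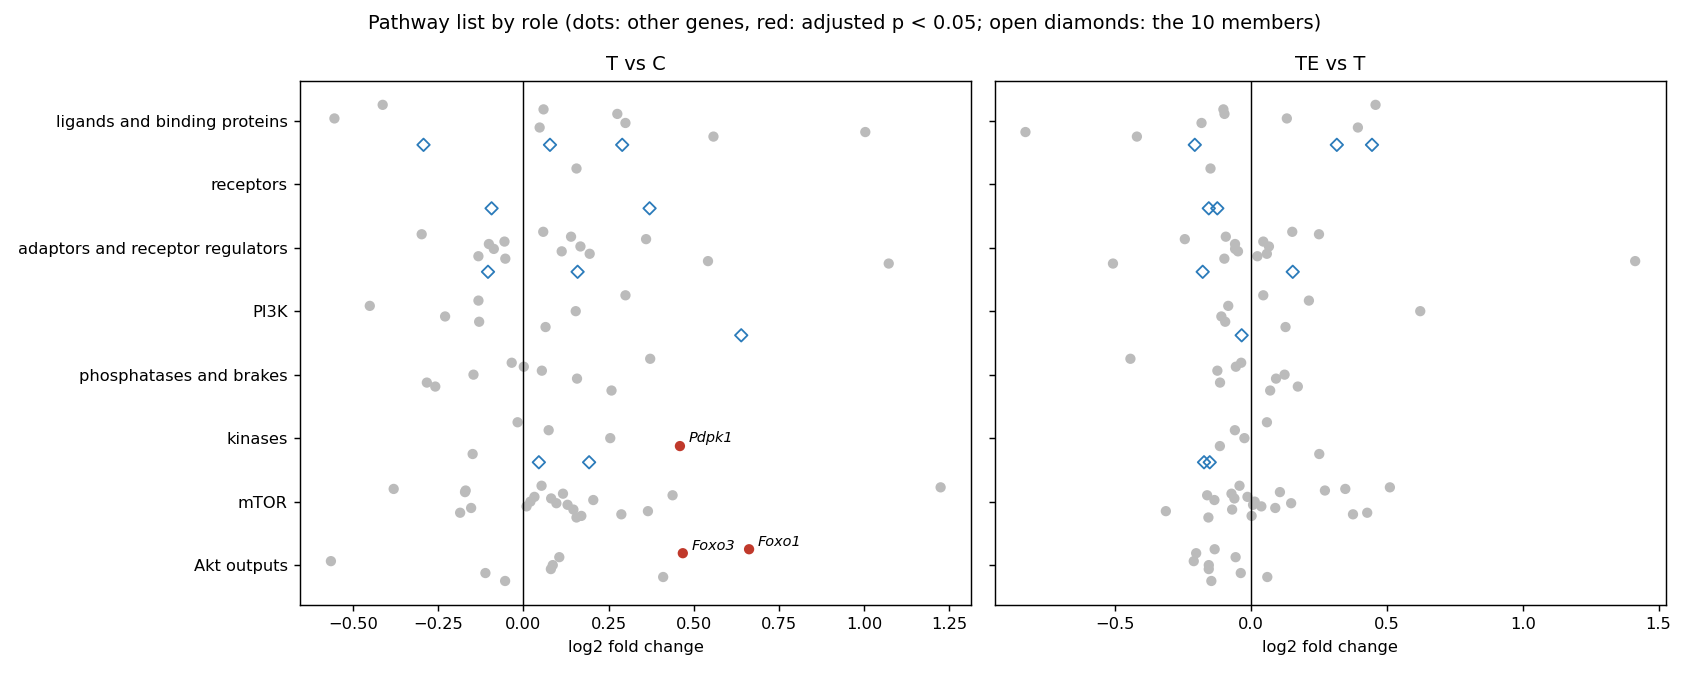
Log2 fold change (horizontal axis) of the 74 tested pathway genes (dots, by role, called genes in red and named) and of the 10 members (open diamonds) in T vs C and TE vs T. Pdpk1, Foxo3 and Foxo1 are the called genes in T vs C, at 0.46, 0.47 and 0.66, and none is called in TE vs T.

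**Figure D5:**
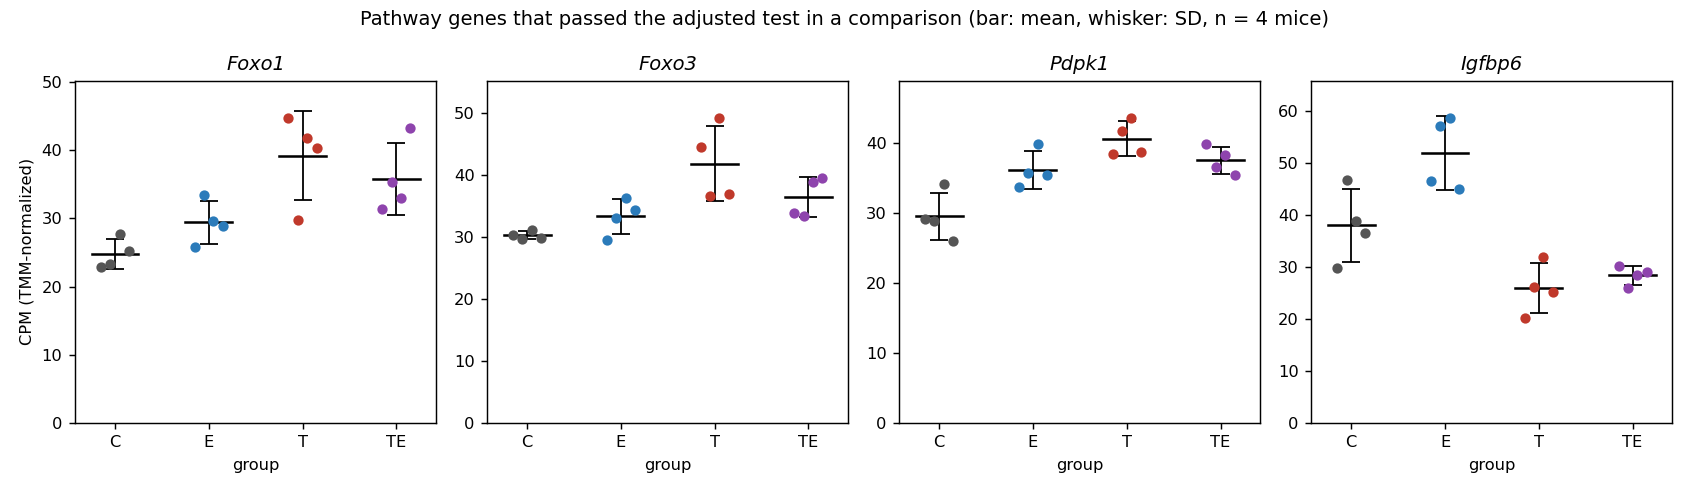
Level of Foxo1, Foxo3, Pdpk1 and Igfbp6 in CPM by group, with 1 point per mouse, a bar for the mean and whiskers for the SD of 4 mice. The 4 T points lie above the 4 C points for Foxo1, Foxo3 and Pdpk1, and the T and TE points of Igfbp6 lie below all E points.

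The members were also compared with each other across the 16 libraries. Of 45 pairs of members, the correlation of log2 CPM had a median of 0.147 and ranged from -0.466 to 0.762, and 2 pairs were above 0.5, Insr with Pik3r1 (r = 0.76) and Insr with Akt2 (r = 0.61). With group means removed these were 0.67 and 0.28, the median was 0.199, and 5 pairs were above 0.5 (Insr with Pik3r1, Pik3r1 with Akt1, Igfbp5 with Akt2, Igf1r with Pik3r1 and Igf1 with Irs1) and 2 below -0.5 (Igfbp5 with Igf1r and Igf1r with Akt2). The genes most like Insr were Kif5b (r = 0.89), Qk (0.88) and Mtor (0.88), those most like Pik3r1 were Fndc3b (0.92), Erbin (0.91) and Chd6 (0.90), and those most like Akt2 were Nomo1 (0.92), Ddx1 (0.89) and Bag6 (0.87), over 16 libraries that share groups and depth. These are descriptions of the highest values among 14749 genes and were given no test. T3 held the highest value of 4 of the 10 members, Insr, Irs2, Pik3r1 and Akt1, and the lowest of Igfbp5.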

How the data were processed

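RNA sequencing of gastrocnemius muscle from 16 mice, 4 per group, was analysed, with groups and replicate numbers from the sample labels. The 10 members and all gene lists were chosen with earlier results of these data known.

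The authors deposited unnormalized counts per gene, made with fastp 0.20.1, HISAT2 2.1.0 and HTSeq 0.11.2 on GRCm39 per the submitters' processing notes. The annotation release and strand setting are not given in the sources used here. The deposited FPKM values equal counts over gene length and library total in 14819 genes checked, to within rounding error.

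Counts were tested with edgeR 4.0.16 in R 4.3.3 (filterByExpr, TMM, glmQLFit and glmQLFTest) with 1 coefficient per group in all 16 libraries. Contrasts were T vs C, E vs C, TE vs T, TE vs E, the tumor and training effects and their interaction. Ratios of members within a library were compared by an exact permutation test over mice, adjusted over 12 tests. Alternatives were DESeq2 1.42.0, limma-voom (limma 3.58.1) with sample weights, other size factors, a robust fit, no filter on low counts, the replicate number as a block, only the groups compared, other thresholds and each library left out. The code was tested on simulated data for T vs C. There edgeR called 21.4% of the genes changed by 0.4 in log2 and 63.3% of those changed by 1. A changed gene can thus be missed. Text names all members, pathway genes called by edgeR in any contrast, and for the 3 members with the smallest adjusted p the 3 genes most correlated with each. Gene positions come from GENCODE on GRCm39, and sequences from RefSeq on GRCm38.p6. Molecular identifiers are not mentioned in the sources used here, and the p-values rest on the spread between mice. The tables held 0 columns of other samples.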

Additional observations from a re-analysis of the deposited data

Results flagged for a closer look

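Among the 10 members in 4 groups, 1 of 40 sets of 4 libraries held a value far from the others by Dixon's criterion, where chance gives about 1 in 20, or 2 of 40. It was Akt1 in C2, at 70.7 CPM, while the other C libraries lay between 60.01 and 61.53 CPM, and the gap was 0.858 of the group's range. Akt1 in C2 remained below the highest T library, T3, at 74.5 CPM.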

How the results depend on the processing

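Leaving out C3, E1 and TE4 together was also chosen after seeing the data. Over 307 alternative values for 13 results, 11 values passed the threshold that the reported value had missed. None of the 12 fold changes tried reversed, those of Insr, Pik3r1, Akt2 and Igf1r in the comparisons with an unadjusted p under 0.05. No scaling moved the median of all genes by over 0.1 in log2. As scaling centers most genes, this does not test single members. In T vs C, DESeq2 called 3 members and leaving out a replicate gave 0 to 2 (2, Insr and Pik3r1, without T2). Without T2, edgeR called 255 of all genes in T vs C, in place of 100. Over both training states DESeq2 called 2 members, limma-voom 1, and leaving out a replicate 0 to 1 (Akt2 without C1 or TE1, Pik3r1 without T2). Of all genes, edgeR called 207 without C1, 196 without TE1 and 281 without T2 for this effect, in place of 201. At an unadjusted p the counts were 3 in T vs C and for the tumor effect, 1 in E vs C, TE vs T, TE vs E and for the training effect, and 2 for the interaction. With a replicate left out these ranged from 3 to 4 in T vs C and for the tumor effect, 0 to 1 in E vs C (0 without E2), 1 to 4 in TE vs T (4 without T2), 0 to 2 in TE vs E, 1 to 3 for the training effect and 0 to 3 for the interaction. Of the other pathway genes, 3 were called in T vs C, 5 with DESeq2 (Igfbp6 and Sesn1 added), 3 with limma-voom, and 0 to 4 with a replicate left out (0 without C4 or T3, 1 without C2 or T1). For the tumor effect 4 were called by edgeR and limma-voom and 6 by DESeq2 (Ddit4 and Igfbp7 added), and Inpp5k was called in E vs C by DESeq2. Sesn1, Ddit4, Igfbp7 and Inpp5k are named outside the rule, after their values were seen. Over all genes DESeq2 called 423 in place of 100 in T vs C and 479 in place of 201 for the tumor effect, 252 in place of 13 in E vs C, 179 in place of 34 in TE vs E, 97 in place of 1 for the training effect, 21 in place of 0 for the interaction and 7 in place of 0 in TE vs T. Without T3 and TE1 together, an alternative chosen after seeing the data, Insr in T vs C was at 0.26 (adjusted p = 0.213) and Pik3r1 at 0.43 (0.351), by edgeR. The causes of these shifts were not tested. Among 25 alternatives for the tumor effect, Foxo1 and Igfbp6 were called in 25, and Foxo3 and Pdpk1 in 14 each.

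With the replicate number as a block (replicate block), 0 members were called in T vs C. Of 24 pairs of same-numbered libraries, 5 had a correlation of deviations above 0.1 (range -0.241 to 0.214). Whether the numbers pair the mice cannot be decided from these values, as libraries with different numbers were not compared. With 4 mice per group, 95% intervals for T vs C were narrowest for Akt2 (0.08 to 0.30) and widest for Igf1 (-0.51 to 0.66).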
